A study of Mus musculus with 4 samples.

Results

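The 10 genes described here encode MHC class I molecules and the proteins that make and load their peptides: H2-K1, H2-D1, B2m, Tap1, Tap2, Tapbp, Psmb8, Psmb9, Psmb10 and Nlrc5. They were chosen by name, and 9 of the 10 were matched to one of the 43629 gene identifiers counted in each library. Psmb9 was not matched and is not analysed here. All 9 matched genes passed the filter on low counts, as did 16500 genes in all.

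RNA from hematopoietic stem and progenitor cells (HSPCs), selected by the surface protein CD117, was sequenced in 4 libraries, 2 in each group. Both groups came from C57Bl/6 mice with floxed alleles, Chaf1b (fl/fl), and adult animals of both sexes were used. Controls received the empty MIGR1 retrovirus. The Chaf1b-deleted group, labelled Chaf1b (-/-), received MIGR1 carrying Cre. MIGR1 also expresses eGFP, by which transduced cells were sorted 48 h after spinfection, so Cre acted in whichever cells the virus entered. By the labels, the medium held SCF at 50 ng/mL, IL6 at 20 ng/mL, IL3 at 10 ng/mL and LDL, while the methods of the study give IL6 at 10 ng/mL. The labels do not say whether libraries came from separate animals, so p-values measure only the spread between these libraries. The comparison asks how deletion of Chaf1b, a subunit of the histone chaperone CAF-1, changes transcripts in these cells. Between 18468637 and 25409926 counts fell on genes in each library, and levels are given as CPM, counts scaled to that total.

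Chaf1b stood at 80.3 and 57.9 CPM in control replicates 1 and 2, and at 16.1 and 17.9 CPM in Chaf1b-deleted replicates 1 and 2. Both deleted libraries lay below both controls. Chaf1b fell by 2.01 on the log2 scale (SE 0.25, adjusted p = 0.0330 by the quasi-likelihood test of edgeR, adjusted by Benjamini-Hochberg). Against the controls alone, it fell by 1.98 in deleted replicate 1 and by 2.03 in deleted replicate 2. Kit, the gene for CD117, was present in all 4 libraries, at 109 and 124 CPM in controls and 95.6 and 124 CPM in deleted replicates 1 and 2.

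Chaf1b-deleted replicate 1 stood apart from the other 3 libraries. Xist, which is read from the inactive X chromosome, was at 336 CPM in it, against 1.14 and 1.30 CPM in the controls and 1.25 CPM in deleted replicate 2. The Y-linked gene Uty was at 0.0850 CPM in it, against 58.4 and 58.2 CPM in the controls and 61.6 CPM in deleted replicate 2. Replicate 1 also had the smallest share of uniquely aligned reads outside genes, 35.8%, against 42.3% and 42.1% in controls and 48.3% in deleted replicate 2. By the sex-linked transcripts the deleted libraries did not come from the same animals, while for the controls this is not known. The part of these differences in the results was not tested. Each deleted library is therefore set against the controls on its own, beside the comparison of both.

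MHC class I molecules present peptides from the cell's own proteins to CD8 T cells. The proteasome cuts those proteins, the TAP transporter carries the peptides into the endoplasmic reticulum, and a loading complex places them on a heavy chain bound to beta-2 microglobulin. Interferons raise the transcription of this machinery and replace the catalytic subunits of the proteasome with inducible ones, which form the immunoproteasome. NLRC5 is a transactivator of class I genes, and progenitors of the bone marrow carry class I molecules on their surface.

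In controls the order of levels, in CPM per kilobase of annotated exon, ran from B2m to Nlrc5. B2m was highest, at 924 and 1027. H2-K1, between 154 and 179, and H2-D1, between 161 and 164, overlapped. Tapbp, between 35.6 and 38.9, lay above Psmb8, between 33.0 and 33.7. Tap2, between 20.5 and 26.9, and Psmb10, between 19.6 and 26.6, overlapped. Tap1 followed between 12.4 and 16.6, and Nlrc5 was lowest, between 2.83 and 3.67. The order of Tapbp and Psmb8 turned when the longest transcript was taken as gene length. The rest of the order in control replicate 1 then changed only between H2-K1 and H2-D1. In control replicate 2 Tap1, at 23.2, then lay above Psmb10, at 19.6.

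Most of the class I genes rose in Chaf1b-deleted replicate 1, and none passed the same test in replicate 2. Summed over the 9 genes, their level was 2022 and 2239 CPM in controls, 5151 CPM in deleted replicate 1 and 2242 CPM in deleted replicate 2. Replicate 1 was 2.42 times the mean of the controls and replicate 2 was 1.05 times it. Deleted replicate 1 lay above both controls for 9 of 9 genes, as it did for 29.3% of all genes tested. Deleted replicate 2 lay above both controls for 3 of 9, as it did for 43.8% of all genes. For the other class I genes it lay within the controls or below both. In RNA from many cells, fewer cells of a type and less RNA per cell cannot be told apart.

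**Figure D1:**
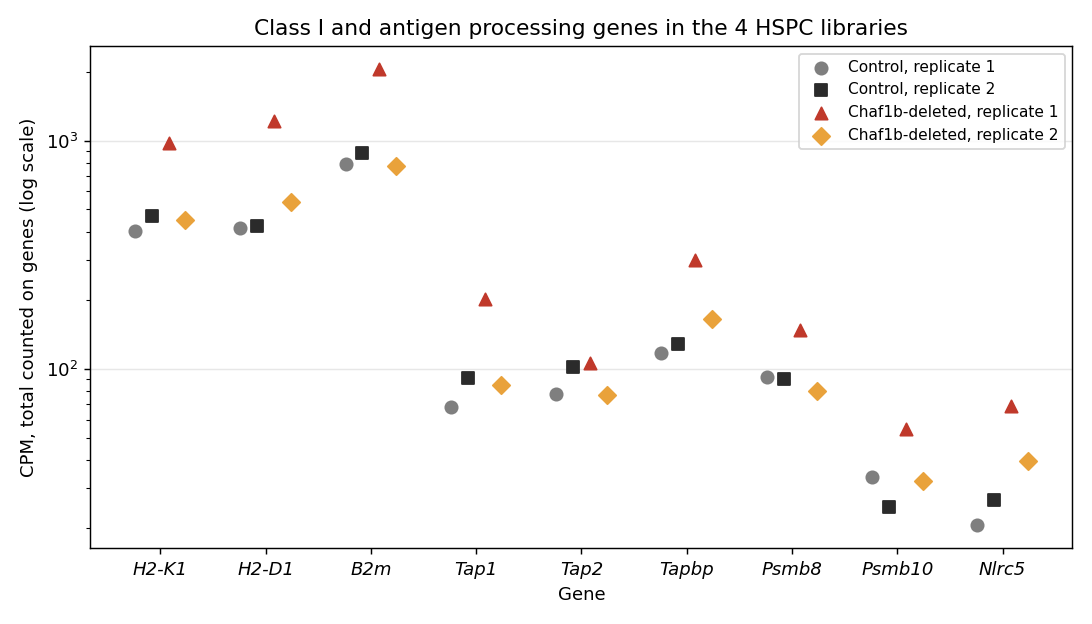
Level of each of the 9 class I and antigen processing genes in the 4 HSPC libraries, in CPM on a log scale, with 1 point for each library. Deleted replicate 1 is the highest point for every gene, while deleted replicate 2 lies above both controls for H2-D1, Tapbp and Nlrc5.

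H2-K1 and H2-D1 encode the classical heavy chains of this strain. H2-K1 stood at 402 and 468 CPM in controls, 978 CPM in deleted replicate 1 and 448 CPM in deleted replicate 2. H2-D1 stood at 416 and 424 CPM in controls, 1226 CPM in deleted replicate 1 and 539 CPM in deleted replicate 2. For H2-K1 deleted replicate 2 lay within the controls, and for H2-D1 it lay above both. In replicate 1 against controls, H2-K1 rose by 1.29 (log2, SE 0.21, adjusted p = 0.0157) and H2-D1 by 1.67 (SE 0.21, adjusted p = 0.00443) by the quasi-likelihood test of edgeR, adjusted by Benjamini-Hochberg. With DESeq2's size factors the H2-K1 call was lost and that of H2-D1 stayed. In replicate 2 the log2 fold changes were -0.03 (95% interval -0.52 to 0.46) for H2-K1 and 0.28 (-0.18 to 0.75) for H2-D1.

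B2m encodes beta-2 microglobulin, the light chain of class I molecules. It stood at 795 and 884 CPM in controls, 2067 CPM in deleted replicate 1 and 776 CPM in deleted replicate 2. The deleted libraries thus lay on opposite sides of the controls, with replicate 2 just below both. B2m rose by 1.42 in replicate 1 (log2, SE 0.21, adjusted p = 0.00919 by the quasi-likelihood test of edgeR, adjusted by Benjamini-Hochberg). That call was lost with DESeq2's size factors. In replicate 2 the log2 fold change of B2m was -0.19 (95% interval -0.67 to 0.30).

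Tap1 and Tap2 encode the subunits of the peptide transporter, and Tapbp encodes tapasin, which holds the heavy chain at the transporter. Tap1 stood at 68.1 and 90.9 CPM in controls, 203 CPM in deleted replicate 1 and 85.2 CPM in deleted replicate 2. Tap2 stood at 77.6 and 102 CPM in controls, 106 CPM in deleted replicate 1 and 76.5 CPM in deleted replicate 2. The transporter genes parted here, since Tap2 in replicate 1 was barely above the higher control. Tapbp stood at 117 and 128 CPM in controls, 299 CPM in deleted replicate 1 and 165 CPM in deleted replicate 2, so that both deleted libraries lay above both controls. In replicate 1 Tap1 rose by 1.48 (log2, SE 0.23, adjusted p = 0.0125) and Tapbp by 1.41 (SE 0.20, adjusted p = 0.00864) by the quasi-likelihood test of edgeR, adjusted by Benjamini-Hochberg. Tap2 did not pass, with 0.37 (95% interval -0.16 to 0.90). With DESeq2's size factors the Tap1 call in replicate 1 was lost and that of Tapbp stayed. The ratio of Tap1 to Tap2, per kilobase of exon, was 0.606 and 0.617 in controls, 1.32 in deleted replicate 1 and 0.769 in deleted replicate 2.

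Psmb8 and Psmb10 encode inducible catalytic subunits of the immunoproteasome. Psmb8 stood at 92.3 and 90.4 CPM in controls, 149 CPM in deleted replicate 1 and 80.2 CPM in deleted replicate 2. Psmb10 stood at 33.7 and 24.9 CPM in controls, 54.4 CPM in deleted replicate 1 and 32.4 CPM in deleted replicate 2. Replicate 1 was the highest library for both, while replicate 2 lay below both controls for Psmb8 and within them for Psmb10. Neither passed in replicate 1, with log2 fold changes of 0.83 (SE 0.21, adjusted p = 0.0746) and 1.01 (SE 0.26, adjusted p = 0.0830) by the quasi-likelihood test of edgeR, adjusted by Benjamini-Hochberg. By edgeR's likelihood ratio test both were called, among 8 of the 9 genes, where 5.10% of all genes were called higher.

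Nlrc5 encodes a transactivator of class I genes. It stood at 20.6 and 26.8 CPM in controls, 68.9 CPM in deleted replicate 1 and 39.6 CPM in deleted replicate 2. Its deleted libraries exceeded both controls, and replicate 1 was the higher. Nlrc5 rose by 1.66 in replicate 1 (log2, SE 0.24, adjusted p = 0.0092) and did not pass in replicate 2, at 0.67 (SE 0.26, adjusted p = 0.333), both by the quasi-likelihood test of edgeR, adjusted by Benjamini-Hochberg. Its 95% interval in replicate 2 ran from 0.07 to 1.27.

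In deleted replicate 1 against controls, 6 of 9 class I genes were called higher, at 1.5-fold or more with an adjusted p under 0.05 by edgeR's quasi-likelihood test, where 2.63% of all genes tested were, and 0 lower, where 0.515% were. At an unadjusted p under 0.05 there were 8 higher, beside 10.7% of all genes, and 0 lower, beside 9.13%. The median log2 ratio to controls was 1.28 over the 9 genes and -0.14 over all genes tested, and 6 of 9 exceeded 2-fold, as did 5.46% of all genes. That ratio is taken on CPM with 0.5 added. Under TMM scaling the median of all genes was -0.03 in replicate 1, and that of the 9 class I genes was 1.40. The fit rests on 3 libraries and assumes that the lone deleted library varies as the controls do. Scaled by the size factors of DESeq2, edgeR called 3 genes, H2-D1, Tapbp and Nlrc5, beside 1.01% of all genes.

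In deleted replicate 2 against controls, 0 of 9 were called higher by edgeR's quasi-likelihood test, where 0.667% of all genes were, and 0 lower, where 0.0364% were. At an unadjusted p under 0.05, 1 of 9 was higher, Nlrc5, beside 8.58% of all genes, and 0 were lower, beside 4.16%. The likelihood ratio test of edgeR called 0, beside 2.56% of all genes. The median log2 ratio was 0.11 over the 9 genes and 0.07 over all genes, and 0 of 9 exceeded 2-fold, beside 6.92% of all genes. Without control replicate 1 the median of the 9 genes was -0.06.

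**Figure D2:**
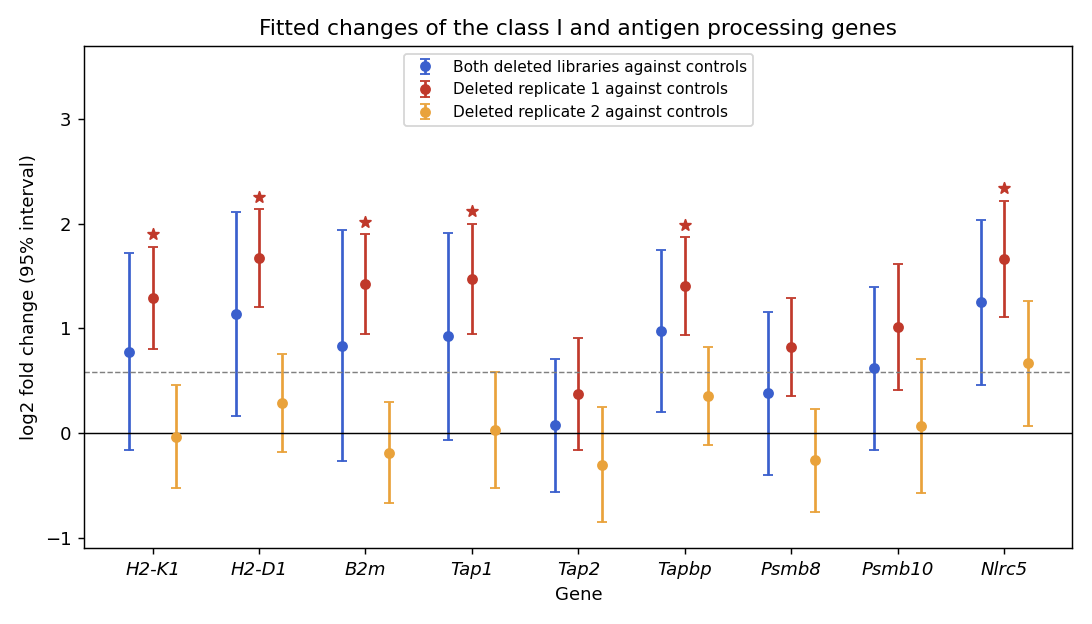
Fitted log2 fold change of each gene with its 95% interval, for both deleted libraries against controls and for each deleted library alone. Stars mark the 6 genes called higher in deleted replicate 1, and the dashed line marks 1.5-fold. The fits share the controls.

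The difference between the deleted libraries was tested in a fit with 3 levels, whose only spread is that of the controls. It compares 2 libraries and not conditions. Deleted replicate 1 was higher for 9 of 9 genes, as for 35.0% of all genes. B2m passed, 1.61 higher in replicate 1 (log2, SE 0.25, adjusted p = 0.0495 by the quasi-likelihood test of edgeR, adjusted by Benjamini-Hochberg). That made 1 of 9 called, where 0.236% of all genes were, and 0 were called lower, where 0.0788% were. The others ranged from 0.67 for Tap2 to 1.45 for Tap1, and all 9 had an unadjusted p under 0.05, beside 4.01% of all genes higher and 7.28% lower. The B2m call was lost with DESeq2's size factors and with library size alone. Without a low-count filter 8 genes were called higher, beside 1.05% of all genes, and by edgeR's likelihood ratio test 5, beside 0.709%.

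With both deleted libraries in 1 group, 0 of 9 genes were called higher by edgeR's quasi-likelihood test, where 0.370% of all genes were, and 0 lower, where 0.00606% were. At an unadjusted p under 0.05 there were 3, H2-D1, Tapbp and Nlrc5, beside 9.15% of all genes, and 0 lower, beside 3.10%. These were the genes for which both deleted libraries lay above both controls, as held for 21.4% of all genes. For 0 of 9 did both deleted libraries lie below both controls, as held for 22.9% of all genes. The largest log2 fold change was that of Nlrc5, 1.25 (SE 0.34, adjusted p = 0.196 by the quasi-likelihood test of edgeR, adjusted by Benjamini-Hochberg), and it was called by edgeR's exact test, its likelihood ratio test and DESeq2, which called 3.14%, 3.53% and 2.86% of all genes higher. H2-D1 had 1.14 (SE 0.42), Tapbp 0.97 (SE 0.33), Tap1 0.93 (SE 0.43), B2m 0.83 (SE 0.47) and H2-K1 0.78 (SE 0.41). Psmb10 at 0.62, Psmb8 at 0.38 and Tap2 at 0.07 were the smallest. Without deleted replicate 1 the count was 0, and the signs of H2-K1, B2m, Tap2 and Psmb8 turned, to -0.03, -0.19, -0.30 and -0.26. With a library left out, the log2 fold change of Nlrc5 lay between 0.67 (without deleted replicate 1) and 1.66 (without deleted replicate 2). Without a low-count filter 4 genes were called higher, beside 2.57% of all genes.

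H2-K1, H2-D1, Tap1, Tap2, Tapbp and Psmb8 lie in the MHC on chromosome 17, from Tapbp (NCBIM37 chr17:34052844-34066235) and H2-K1 (chr17:34132962-34137278) to H2-D1 (chr17:35399675-35404444). Tap1 (chr17:34324498-34334170), Psmb8 (chr17:34334666-34338399) and Tap2 (chr17:34340472-34353266) lie side by side between them. B2m (chr2:121973422-121978819), Psmb10 (chr8:108459628-108462292) and Nlrc5 (chr8:96996663-97051172) lie elsewhere. Of 76 genes tested between Tapbp and H2-D1, leaving out the class I genes, the MHC class II list and every other gene named H2, 2 were called higher in deleted replicate 1, or 2.63%, beside 2.63% of all genes. Their median log2 ratio to controls was 0.06 in deleted replicate 1 and 0.14 in deleted replicate 2.

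The promoters of H2-K1, H2-D1, B2m and Tap1 are printed because these genes were called in replicate 1 and their windows hold matches to motifs of known class I regulators. Each is the stretch before the RefSeq start in GRCm38.p6, read 5′ to 3′ on the gene's strand: H2-K1 at chr17:34000348-34000597 (minus strand), H2-D1 at chr17:35262844-35263093, B2m at chr2:122147437-122147686 and Tap1 at chr17:34187331-34187555 (plus strand). Tap1 and Psmb9 are read in opposite directions, and the Tap1 window is the 225 bases between their starts. Capitals mark matches, on either strand, to the interferon regulatory factor motif AANNGAAA and the core of the X2 box, TGACG. They also mark a single kB sequence, GGGG, ATT and CCCC in a row. Other forms of the kB motif were not searched for, and a stretch in lower case may hold one.
H2-K1: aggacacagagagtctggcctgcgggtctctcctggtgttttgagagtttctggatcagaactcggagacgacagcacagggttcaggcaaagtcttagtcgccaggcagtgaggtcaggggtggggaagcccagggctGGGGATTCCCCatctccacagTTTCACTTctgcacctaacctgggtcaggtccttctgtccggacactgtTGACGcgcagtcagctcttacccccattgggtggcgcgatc
H2-D1: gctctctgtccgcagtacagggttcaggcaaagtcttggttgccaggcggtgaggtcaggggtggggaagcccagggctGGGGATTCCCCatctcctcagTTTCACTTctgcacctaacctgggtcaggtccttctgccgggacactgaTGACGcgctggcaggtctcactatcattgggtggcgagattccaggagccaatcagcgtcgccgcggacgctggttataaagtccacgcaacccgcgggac
B2m: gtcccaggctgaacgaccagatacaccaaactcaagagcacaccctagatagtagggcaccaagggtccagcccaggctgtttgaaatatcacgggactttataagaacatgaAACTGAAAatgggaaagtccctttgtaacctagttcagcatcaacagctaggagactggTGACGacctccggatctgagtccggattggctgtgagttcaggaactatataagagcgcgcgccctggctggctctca
Tap1: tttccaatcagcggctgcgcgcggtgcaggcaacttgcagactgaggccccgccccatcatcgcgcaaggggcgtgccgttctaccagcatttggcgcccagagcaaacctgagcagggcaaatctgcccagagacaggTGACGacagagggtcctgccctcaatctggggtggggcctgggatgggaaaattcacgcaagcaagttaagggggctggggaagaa
The H2-K1 and H2-D1 promoters share a run of 47 bases that holds the kB sequence. In both, the kB match stands before the interferon regulatory factor match and the X2 core stands nearer the start. Matches begin 111, 90 and 41 bases before the start in H2-K1 and 171, 150 and 101 bases before it in H2-D1. These distances depend on the annotated start, and of the 2 windows listed for H2-K1 the first was used. B2m has an interferon regulatory factor match from base 137, inside the longer motif of interferon response elements (GAAA, any 2 bases, GAAA), and an X2 core from base 78, while Tap1 has an X2 core from base 86. This exact kB sequence stood in 10 of 32851 RefSeq windows of 250 bases (0.0304%). Of the same windows, AANNGAAA stood in 21.3%, the longer motif in 2.98%, TGACG in 17.8% and CCAAT, which is not capitalised, in 33.8%. The kB sequence has more fixed letters than the other motifs, so its share is not comparable with theirs. Of 8 class I genes with a window, Psmb9 included, AANNGAAA was found in 3, TGACG in 5 and CCAAT in 6. Tap1 and Psmb9 share the stretch between them, so their X2 core and CCAAT matches are the same sites, counted for each gene. Tap2 and Nlrc5 have no window. The windows of Tapbp, which was also called in replicate 1, and of Psmb8 and Psmb10 hold no match to the capitalised motifs and are not printed. A match is a description of letters and shows no binding.

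The nonclassical and class I-like heavy chains share the fold of H2-K1 and H2-D1, and many also pair with B2m. Of 18 listed genes 16 were matched and 12 tested, of which 7 were called higher in deleted replicate 1 by edgeR's quasi-likelihood test: H2-Q4, H2-Q6, H2-Q7, H2-Q10, H2-T22, H2-T23 and H2-T24. With DESeq2's size factors 4 were called. H2-T23, which encodes Qa-1, stood at 44.8 and 52.3 CPM in controls, 105 CPM in deleted replicate 1 and 54.3 CPM in deleted replicate 2. H2-Q6 stood at 12.4 and 15.7 CPM in controls, 68.6 CPM in deleted replicate 1 and 29.6 CPM in deleted replicate 2. Replicate 1 was the highest library for both, and replicate 2 was above both controls, narrowly for H2-T23. The median log2 ratio of the 12 tested genes was 1.37 in replicate 1 and 0.53 in replicate 2. Mr1 and Cd1d1, which present metabolites and lipids, had the lowest ratios in replicate 1, 0.02 and 0.15.

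H2-Q10, a nonclassical gene known for its secreted product from liver, differed in pattern. It stood at 2.16 and 0.708 CPM in controls, 21.3 CPM in deleted replicate 1 and 16.2 CPM in deleted replicate 2. Both deleted libraries were high. It rose by 4.02 in replicate 1 (log2, SE 0.56, adjusted p = 0.00723), by 3.42 in replicate 2 (SE 0.58, adjusted p = 0.0421) and by 3.75 over both (SE 0.55, adjusted p = 0.0447) by the quasi-likelihood test of edgeR, adjusted by Benjamini-Hochberg. The difference between the deleted libraries was 0.60 (SE 0.62, 95% interval -0.82 to 2.01). All of these calls were lost with DESeq2's size factors, and those in replicate 2 and over both also with library size alone. Likelihood ratio and exact tests and DESeq2 called it over both libraries.

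Counts of these heavy chains are uncertain, because their sequences are close. Of the exonic stretches of 31 bases, 34.1% of those of H2-K1, 30.8% of those of H2-D1, 40.2% of those of H2-Q10 and 75.6% of those of H2-Q7 occur elsewhere in the genome. H2-K1 and H2-D1 share 302 such stretches. In H2-T24 the share was 10.7%, and in B2m, Nlrc5 and Psmb10 it was 0. Annotated neighbours also overlap B2m (Patl2), Tap1 (Psmb9), Tap2 and Psmb8 (Gm20496), Tapbp (Zbtb22) and Psmb10 (Gm16156), and since the strand setting of the counting is not given, reads from overlapping genes may not have been told apart.

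Other genes of peptide loading and trimming, such as the chaperones calnexin and calreticulin and the peptidase Erap1, did not pass in replicate 1. Of 12 tested, 0 were called by edgeR's quasi-likelihood test, 1 was higher at an unadjusted p under 0.05, and edgeR's likelihood ratio test called 1, Tapbpl. Tapbpl, a relative of tapasin, stood at 27.2 and 22.8 CPM in controls, 44.0 CPM in deleted replicate 1 and 30.0 CPM in deleted replicate 2. The deleted libraries were the highest for it. Lnpep and Uggt1 had the lowest log2 ratios in replicate 1, -0.56 and -0.43. The median ratio over the list was 0.05 in replicate 1 and -0.05 in replicate 2.

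The proteasome was compared by subunit class. Of the constitutive catalytic subunits Psmb5, Psmb6 and Psmb7, which Psmb8, Psmb9 and Psmb10 replace, 0 of 3 were called in replicate 1, with 0 at an unadjusted p under 0.05 and 0 by edgeR's likelihood ratio test. Of 11 other subunits of the 20S core, 0 were called, with 1 higher at an unadjusted p under 0.05 and 0 by the likelihood ratio test. Their median log2 ratios were 0.13 and 0.01 in replicate 1, and -0.33 and -0.32 in replicate 2. In replicate 2 the ratios of the other core subunits ran from -0.91, for Psma4, to 0.04, for Psmb4. Psmb4 had the highest ratio of the core subunits in replicate 1, 0.56, and Psma1 the lowest, -0.18. The subunits that interferon replaces thus lay near the controls in the library where the inducible ones were highest.

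Psmb8 exceeded Psmb5, per kilobase of exon, by a ratio of 1.06 and 1.37 in controls, 2.07 in deleted replicate 1 and 1.41 in deleted replicate 2. Psmb10 stood to Psmb7 as 0.255 and 0.248 in controls, 0.430 in deleted replicate 1 and 0.355 in deleted replicate 2. Both ratios were highest in replicate 1, and in replicate 2 both lay above the controls, for Psmb8 only narrowly. The denominators were low in replicate 2. Psmb5 stood at 19.1 CPM there, against 29.2 and 22.2 CPM in controls. Psmb7 stood at 87.4 CPM there, against 126 and 95.9 CPM in controls. Psme1 and Psme2 encode the interferon-inducible activator of the proteasome, and Psme3 and Psme4 encode other activators. Psme1 stood at 113 and 93.7 CPM in controls, 164 CPM in deleted replicate 1 and 106 CPM in deleted replicate 2. The ratio of Psme1 to Psme3 was 0.695 and 0.792 in controls, 1.26 in deleted replicate 1 and 0.839 in deleted replicate 2. Of the 4 activators 0 were called in replicate 1 by edgeR's quasi-likelihood test, 2 were higher at an unadjusted p under 0.05, and the likelihood ratio test called 1, Psme2. The log2 ratios in replicate 1 were 0.67 for Psme1, 0.91 for Psme2, -0.08 for Psme3 and -0.57 for Psme4.

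**Figure D3:**
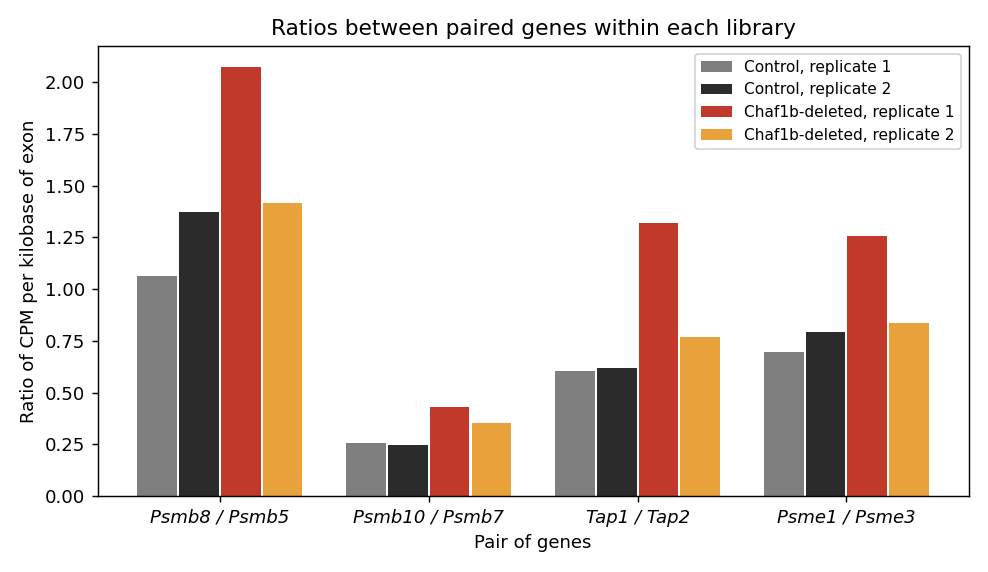
Ratio between paired genes within each library, each in CPM per kilobase of exon, with 1 bar for each library. Psmb8 to Psmb5 reached 2.07 and Tap1 to Tap2 reached 1.32 in deleted replicate 1, the highest of the 4 libraries for each pair.

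Of 17 tested factors known to act on class I promoters, 0 were called lower in replicate 1 by edgeR's quasi-likelihood test. Among those called higher there were Irf7, Irf9 and Stat2 of the interferon response. Irf7 stood at 20.4 and 29.3 CPM in controls, 276 CPM in deleted replicate 1 and 35.8 CPM in deleted replicate 2. Irf9 stood at 45.0 and 44.8 CPM in controls, 124 CPM in deleted replicate 1 and 39.4 CPM in deleted replicate 2. Replicate 1 was high for both, while replicate 2 lay just above the controls for Irf7 and below them for Irf9. Irf7 and Irf9 also differed between the deleted libraries, by 3.15 (log2, SE 0.32, adjusted p = 0.00647) and 1.86 (SE 0.26, adjusted p = 0.0294) by the quasi-likelihood test of edgeR, adjusted by Benjamini-Hochberg. These last calls were lost with DESeq2's size factors, and that of Irf9 also with library size alone. The Stat2 call in replicate 1 was lost under either scaling.

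Irf1, which also acts on class I promoters, stood at 37.6 and 45.9 CPM in controls, 73.0 CPM in deleted replicate 1 and 55.6 CPM in deleted replicate 2. Both deleted libraries lay above both controls, but it did not pass in replicate 1, though the likelihood ratio test called it (log2 fold change 0.93, SE 0.23, adjusted p = 0.0745 by the quasi-likelihood test of edgeR, adjusted by Benjamini-Hochberg). Among partners of NLRC5 at the promoter, Rfx5, Rfxap and Rfxank had log2 ratios of -0.71, -0.19 and -0.06 in replicate 1. Nfya and Creb1 had the lowest ratios of the list, -0.79 and -0.72, and did not pass. Nfkb1, the most abundant factor in control replicate 1 and deleted replicate 2, was between 174 and 224 CPM in the 4 libraries.

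Interferon-stimulated genes outside antigen presentation were the group with the largest change in replicate 1 among the lists compared. Of 24 tested, 22 were called higher there by edgeR's quasi-likelihood test and 17 were called higher in deleted replicate 1 than in deleted replicate 2. With DESeq2's size factors these counts were 21 and 8. In replicate 2 against controls 0 were called, with 4 higher and 1 lower before adjustment at p under 0.05 and 0 by the likelihood ratio test. The summed level was 597 and 578 CPM in controls, 3262 CPM in deleted replicate 1 and 721 CPM in deleted replicate 2. Replicate 1 was thus apart from the other 3 libraries in these genes as in the class I genes. With both libraries together 0 were called, and 20 were higher at an unadjusted p under 0.05, beside 9.15% of all genes. Other tools called from 2, by DESeq2, to 13, by edgeR's likelihood ratio test, beside 2.86% and 3.53% of all genes.

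**Figure D4:**
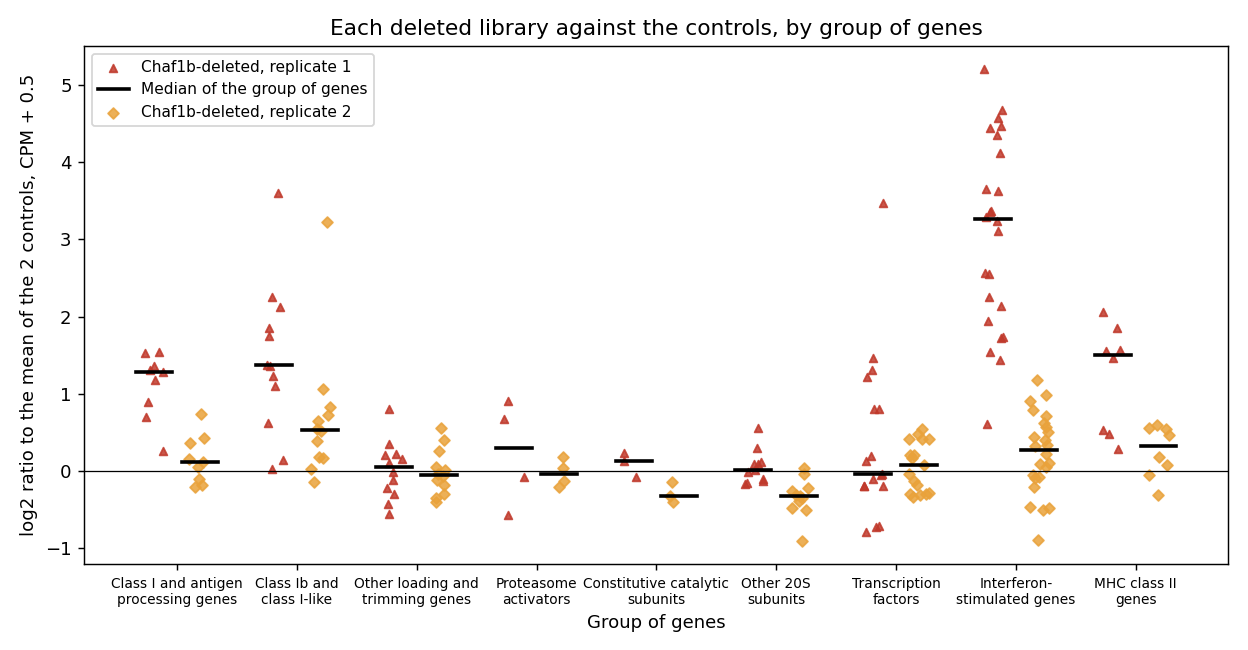
Log2 ratio of each deleted library to the mean of the controls, on CPM with 0.5 added, with 1 point for each tested gene and a bar at the median of each group of genes. Class I and interferon-stimulated genes lie high in replicate 1, with medians of 1.28 and 3.27. Class Ib and class I-like genes and MHC class II genes also lie high there, with medians of 1.37 and 1.51, while constitutive proteasome subunits lie near 0.

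Transcripts of interferons themselves were at or near 0. The 6 ligand genes matched, Ifnb1, Ifna2, Ifna4, Ifng, Il28a and Il28b, had between 0 and 2 counts in each library, where 3 counts amount to between 0.118 and 0.162 CPM. Such a floor covers counting error only. The receptor genes Ifnar1, Ifnar2, Ifngr1 and Ifngr2 were measured in all libraries, and of these 4 tested 0 were called in replicate 1 by edgeR's quasi-likelihood test, 2 were higher at an unadjusted p under 0.05, and the likelihood ratio test called 1, Ifnar2. Ifnar2 stood at 51.2 and 57.3 CPM in controls, 88.3 CPM in deleted replicate 1 and 79.0 CPM in deleted replicate 2. Both deleted libraries lay above both controls for it. Ifngr1, the most abundant receptor, stood at 207 and 311 CPM in controls, 175 CPM in deleted replicate 1 and 162 CPM in deleted replicate 2. Both deleted libraries lay below both controls for it, and in replicate 2, where 0 receptors were called, 1 was lower at an unadjusted p under 0.05 and 0 were called by the likelihood ratio test.

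Among the genes nearest in pattern to the median class I gene, by Euclidean distance over the log2 ratios of the 4 libraries, were H2-T22 (0.137), Gbp7 (0.139), Psme2b-ps (0.146) and Trim34a (0.185). The class I genes themselves lay at a median distance of 0.371 and at most 1.09 from that profile. Gbp7, which encodes an interferon-inducible GTPase, stood at 57.4 and 64.7 CPM in controls, 164 CPM in deleted replicate 1 and 66.9 CPM in deleted replicate 2. It was high in replicate 1 and near the controls in replicate 2.

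MHC class II genes also had a high median log2 ratio to controls in deleted replicate 1, 1.51, with 0.32 in deleted replicate 2. They differed from the class I genes in that the controls lay far apart. Their summed level was 202 and 1009 CPM in control replicates 1 and 2, 1269 CPM in deleted replicate 1 and 511 CPM in deleted replicate 2. The controls differed more from each other than deleted replicate 1 did from control replicate 2. Cd74, the invariant chain and the most abundant of the list, stood at 86.2 and 487 CPM in controls, 566 CPM in deleted replicate 1 and 216 CPM in deleted replicate 2. Ciita, the class II counterpart of Nlrc5, stood at 5.23 and 21.1 CPM in controls, 32.1 CPM in deleted replicate 1 and 16.2 CPM in deleted replicate 2. Of 8 tested 0 were called in replicate 1 by edgeR's quasi-likelihood test, 2 were higher at an unadjusted p under 0.05, and the likelihood ratio test called 0.

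Markers of cells that carry much class I were measured for the same libraries. The summed level of 8 macrophage markers was 175 and 495 CPM in controls, 415 CPM in deleted replicate 1 and 313 CPM in deleted replicate 2. Csf1r was the most abundant of them in both controls and Adgre1 in both deleted libraries, and none was at 0, though C1qa was at 0.660 and 23.2 CPM in controls, 10.6 CPM in deleted replicate 1 and 0.433 CPM in deleted replicate 2. Of these 8, 1 was called higher in replicate 1, Fcgr1, and the call was lost with DESeq2's size factors.

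The summed level of 8 dendritic cell markers was 16.9 and 22.2 CPM in controls, 91.8 CPM in deleted replicate 1 and 77.2 CPM in deleted replicate 2. Zbtb46 was the most abundant in both controls, Ccr7 in deleted replicate 1 and Fscn1 in deleted replicate 2, and none was at 0, while Clec9a and Cd209a were near or under 1 CPM. Of the 8 markers, 5 lay above both controls in both deleted libraries, beside 21.4% of all genes tested. Of 7 tested, 3 were called higher in replicate 1 by edgeR's quasi-likelihood test, Itgax, Ccr7 and Fscn1, and 1 in replicate 2, Fscn1. With DESeq2's size factors these counts were 2 and 0. The summed level of 6 B cell markers was 42.5 and 59.2 CPM in controls, 84.8 CPM in deleted replicate 1 and 55.8 CPM in deleted replicate 2, with Ighm the most abundant and none at 0. Without Ighm the sum was 15.1 and 17.9 CPM in controls, 29.3 CPM in deleted replicate 1 and 24.04 CPM in deleted replicate 2. Of the 6 B cell markers, 5 lay above both controls in both deleted libraries, beside 21.4% of all genes tested. Of these 6, 0 were called in either replicate by edgeR's quasi-likelihood or likelihood ratio test, and 3 were higher in replicate 1 at an unadjusted p under 0.05. Of 8 markers of T and NK cells, 7 were under 1 CPM in every library, with Cd3e at 0 in deleted replicate 1, Ncr1 at 0 in deleted replicate 2 and Cd3g at 0 in that library and control replicate 1, and Nkg7 made up nearly all of their sum. The part of these cell types in the class I result was not tested.

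**Figure D5:**
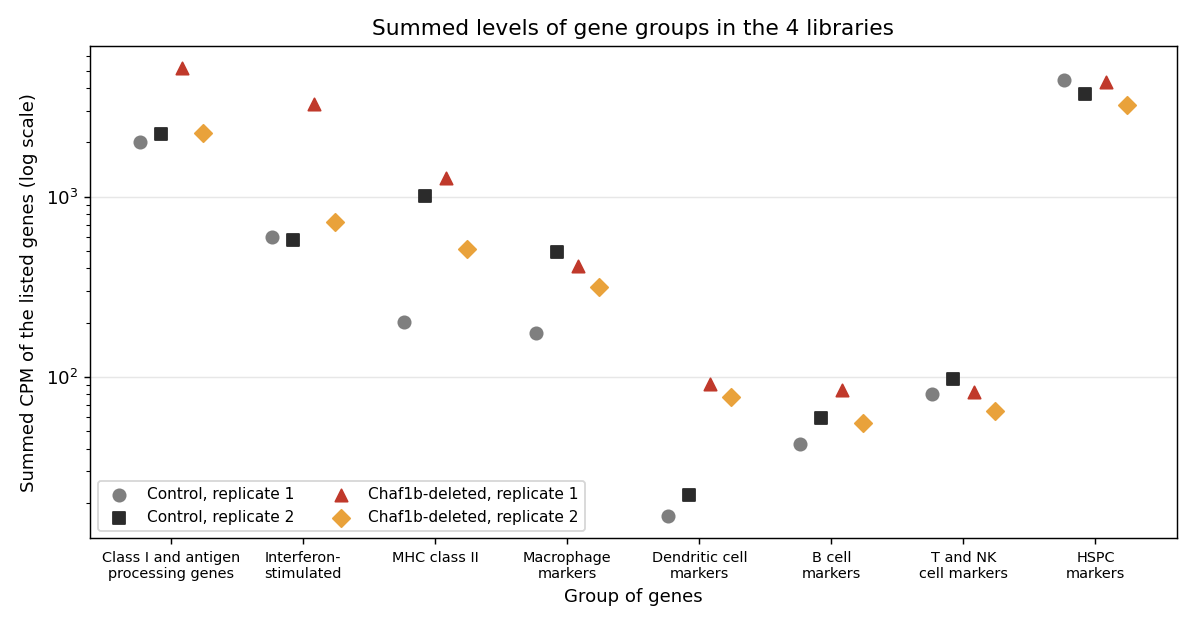
Summed CPM of the class I genes and of gene lists for other programs and cell types, on a log scale, with 1 point for each library. Class I, interferon-stimulated and class II sums are highest in deleted replicate 1, dendritic cell sums are high in both deleted libraries, and class II sums also differ between the controls.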

How the data were processed

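The authors aligned reads of stranded, ribosome-depleted total RNA to mm9 with STAR and counted them per gene with HTSeq, and deposited the raw counts, 1 table for each library. The annotation release and strand setting are not given in the sources used here. Identifiers were named from the NCBIM37 annotation (33068 of 43629), or through RefSeq synonyms, and the summary lines of HTSeq were left out of totals. Reads outside genes made up between 35.8% and 48.3% of uniquely aligned reads, and ambiguous ones between 2.05% and 2.76%.

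Counts were fitted with edgeR 4.0.16 (filterByExpr with a minimum count of 10, TMM factors between 0.926 and 1.06, glmQLFit and glmQLFTest), limma 3.58.1 and R 4.3.3, without a covariate. A gene was called when it changed 1.5-fold or more and its p, adjusted by Benjamini-Hochberg over 16500 genes, was under 0.05. Intervals are at 95%. The common dispersion was 0.0763 with 5.68 prior degrees of freedom. Fits of a lone deleted library have 1 residual degree of freedom. Counts of the 2 libraries of a group differed by more than counting error. CPM used the total counted on genes, and ratios used 0.5 CPM added. Levels per kilobase used the union of annotated exons. DESeq2 1.42.0 was an alternative, with other scalings, filters, tests, thresholds and left-out libraries. The methods were tested on simulated data. Python 3.11.15 with pandas 2.3.3 and numpy 2.4.6 was used for levels, sequences and shared stretches.

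The members and lists were chosen with earlier results of these data known. Named besides the members were, from each list, called genes, the 2 highest and 2 lowest ratios in deleted replicate 1, the most abundant genes, and genes among the 5 of nearest pattern. Some genes under this rule are not reported here. H2-Q1, Ifna1 and Ifna5 were not matched, and H2-Q2, which matched 2 identifiers, was left out. Irf1, Rfx5, Rfxap, Rfxank, Ciita, C1qa, Clec9a, Cd209a, Cd3e, Cd3g, Ncr1, Uty, Xist, Kit, Myb, Erap1 and Canx were named for their roles after their values were seen.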

Additional observations from a re-analysis of the deposited data

How the results depend on the processing

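Over both deleted libraries, 0 class I genes were called. The count was 4 without a low-count filter and 1 by edgeR's exact test, its likelihood ratio test or DESeq2, and from 0 to 6 with a library left out. With a library left out, 1 library stands for its group and is assumed to vary like the other group. Over all genes 61 were called higher and 1 lower. These became 27 higher with DESeq2's size factors and 30 higher with library size only. They became 808 and 79 without a low-count filter, 3 and 0 with at least 10 counts in every library, 518 and 35 by the exact test, 583 and 40 by the likelihood ratio test, 472 and 34 by DESeq2, and 0 and 0 at 2-fold with an adjusted p under 0.01. With a library left out they ranged from 110.0 to 434 higher and from 6 to 85 lower.

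With the replicate number as a block, 14 genes were called higher and 0 lower, and 0 class I genes. Same-numbered libraries share only a number: their deviations from group means correlated across 16500 genes at r = 0.0133, and no source ties them to 1 animal.

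In deleted replicate 1 the 6 called genes became 3 with DESeq2's size factors. Between the deleted libraries the 1 called gene became 0 with DESeq2's size factors, 0 with library size only, 8 without a low-count filter and 5 by the likelihood ratio test. The median ratio of the class I genes in replicate 1, 1.28, became 1.40 with TMM and 1.42 with DESeq2's size factors, and lay between 1.15 and 1.34 without 1 control. In replicate 2, 0.11 became 0.04 with TMM, 0.03 with DESeq2's size factors, -0.0644 without control replicate 1 and 0.16 without control replicate 2. With a library left out, the log2 fold change over both ranged from -0.0327 (without deleted replicate 1) to 1.29 for H2-K1, from -0.19 to 1.42 for B2m, from -0.30 to 0.37 for Tap2, which was -0.10 without control replicate 1, and from -0.26 to 0.83 for Psmb8. The cause of these changes was not tested. Transcripts under 3 counts, or between 0.118 and 0.162 CPM, could not be told from 0 at this depth.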

Other observations

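Some genes of other lists were high in both deleted libraries, unlike most class I genes. Fscn1, which encodes the actin-bundling protein fascin of mature dendritic cells, stood at 1.41 and 2.64 CPM in controls, 25.7 CPM in deleted replicate 1 and 26.7 CPM in deleted replicate 2. It rose by 3.72 over both (log2, SE 0.37, adjusted p = 0.0254 by the quasi-likelihood test of edgeR, adjusted by Benjamini-Hochberg), and its call over both held under each scaling tried. Flt3, the cytokine receptor of early lymphoid and dendritic progenitors, stood at 4.66 and 5.31 CPM in controls, 19.3 CPM in deleted replicate 1 and 22.7 CPM in deleted replicate 2. It rose by 2.09 (SE 0.28, adjusted p = 0.0383 by the quasi-likelihood test of edgeR, adjusted by Benjamini-Hochberg), a call lost with DESeq2's size factors and with library size alone. For both genes the deleted libraries lay far above both controls and close to each other.

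Of 8 erythroid and megakaryocyte markers, 3 were called higher in deleted replicate 2 by edgeR's quasi-likelihood test, Pf4, Itga2b and Vwf, and 0 in deleted replicate 1, where, at p under 0.05 before adjustment, 3 stood higher and 2 lower and the likelihood ratio test called 1. Vwf, which encodes von Willebrand factor, stood at 6.86 and 7.40 CPM in controls, 13.8 CPM in deleted replicate 1 and 28.4 CPM in deleted replicate 2. Both deleted libraries lay above both controls, with replicate 2 the higher. The difference between them did not pass for Vwf, with -0.85 for replicate 1 against replicate 2 (log2, SE 0.38, adjusted p = 0.445 by the quasi-likelihood test of edgeR, adjusted by Benjamini-Hochberg). With library size alone 1 of the 3 calls remained and with DESeq2's size factors 0. Of 8 HSPC markers 2 were called higher in replicate 1, Ly6a and Flt3, and 0 lower, with 1 lower at p under 0.05 before adjustment. Myb, a regulator of progenitors, stood at 475 and 492 CPM in controls, 298 CPM in deleted replicate 1 and 335 CPM in deleted replicate 2, below both controls in both, and did not pass. Of 5 stromal and endothelial markers 1 was called higher in replicate 1, Kdr. With DESeq2's size factors 0 genes of either list were called higher in replicate 1.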
